A study of Mus musculus with 2 samples.

Results

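The alcohol dehydrogenases (Adh), the aldehyde dehydrogenases (Aldh) and the aldo-keto reductases (Akr) are 3 families of enzymes that oxidise alcohols and aldehydes or reduce aldehydes and ketones. Their genes were chosen by the gene names of the array design, as every name that starts with Adh, Aldh or Akr and a family number, without Akr1d1. This gave 41 of 30153 genes, with 49 of 39390 probes and 58 of 43020 spots that are not controls. They are 5 Adh, 20 Aldh and 16 Akr genes. The rule uses names only and no measured value.

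In liver, alcohol dehydrogenases turn ethanol and retinol into aldehydes, and aldehyde dehydrogenases turn these and many other aldehydes into acids with NAD+ or NADP+ as the acceptor. Aldo-keto reductases mostly run in the other direction and use NADPH to reduce sugar aldehydes, lipid aldehydes, quinones and steroid ketones. Hepatocytes are a main site of these reactions in the body, and several of the genes lie side by side in clusters of close relatives.

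The data are 2 Agilent mouse arrays, 1 for each cell population, labelled with Cy3. Mature hepatocytes (MHs) came from healthy livers and were collected by low-speed and Percoll gradient centrifugation, which removes dead cells. The other population came from livers injured by a diet with DDC, 3,5-diethoxycarbonyl-1,4-dihydro-collidine, which causes chronic bile duct injury and a ductular reaction, and was sorted by FACS as GFP-positive, EpCAM-negative cells. It is called Sox9+EpCAM- cells here, and the study regards it as biphenotypic hepatocytes. The study's methods state that both livers were of Sox9-EGFP mice, so the reporter of Sox9 is common to both groups and GFP stands in for Sox9 in the sort. The sources used here give neither the age of the mice, the length of the diet before these arrays nor the number of mice behind each array. Diet, cell population and way of isolation differ together between the arrays and cannot be told apart.

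With 1 array per group no value has an SD between mice and no test was possible, and precision is limited by how few arrays there are. Each value below is a processed spot intensity in the scanner's linear units, given for the MH array first. The 75th percentile of these intensities was 741 for MHs and 1110 for Sox9+EpCAM- cells. Every difference is therefore the log2 intensity relative to that percentile, Sox9+EpCAM- minus MH, and a gene with equal intensities on both arrays has a difference below 0. A probe not well above background on 1 array gives only a bound ("at least"), set against its own signal there or against the dimmest signal well above background on that array (27.8 for MHs, 18.4 for Sox9+EpCAM- cells), whichever was higher. No fold is given where that bound is under 1 or where the probe was not well above background on either array. The probe with the highest mean over both arrays stands for a gene with several probes. A difference of 4-fold, which is 2 on the log2 scale, was the rule of size.

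The labels of the arrays were set against marker genes. All 15 hepatocyte markers on the array were well above background on both, and all 15 were lower in Sox9+EpCAM- cells, from Cyp3a11 (difference -8.58) and Tat (-2.46) to Alb (-0.87), Hnf4a (-0.23) and Apob (-0.22), with a median of -0.87. Over the ways of scaling or correcting the background given below, 10 to 15 of them were lower, with Hnf4a and Apob above 0 under scaling to Gapdh and under quantile normalization. Sox9, not well above background in MHs, was at least 1.45-fold higher on the other array. Against the EpCAM-negative gate, Epcam read 139 and 2770, higher by 13.3-fold in the sorted cells. The summed level of 14 cholangiocyte markers, in multiples of the 75th percentile, was 4.63 in MHs and 54.8 in Sox9+EpCAM- cells, of which Spp1 made up most (4.28 and 12.5 without it). Of the 13 measured on both arrays, 10 were higher and 3 lower (Krt7, Cftr and Prom1), with a median of 0.47 over all 14. The sum of 14 stellate cell and fibroblast markers was 12.9 and 55.5 (2.02 and 42 without its brightest gene, Dcn). It was higher on the MH array for 10 endothelial markers (9.91 and 2.31), 12 leukocyte markers (42.2 and 16, or 25.7 and 3.67 without Csf1r, although Cd68 was 14.4-fold higher in Sox9+EpCAM- cells) and 6 erythroid markers (4.18 and 0.699). Both samples are labelled male, but Xist was detected above background in MHs alone (intensities 1940 and 16.1), and the Y-linked Ddx3y in Sox9+EpCAM- cells alone (8.43 and 642). Sex as these genes read it, and the other cells whose markers moved, go with the groups in every result below, and their part was not tested. Since these are bulk samples, fewer cells of a type and less RNA per cell cannot be told apart.

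Most of the enzymes were lower in Sox9+EpCAM- cells. Levels well above background were found on both arrays for 30 of the 41 genes, in Sox9+EpCAM- cells alone for 7, in MHs alone for 1 and on neither array for 3. Of the 30 measured on both, 26 were lower in Sox9+EpCAM- cells and 4 higher, a share lower of 86.7% where it was 59.9% over all 19232 genes measured on both. The median difference over the 35 genes with a value was -1.06, against -0.12 over all genes with one. At least 4-fold lower were 7 of the 38 genes above background on 1 array or both (18.4%), beside 5.57% of all genes, and these were Akr1c6, Aldh3b2, Akr1c20, Aldh1a3, Akr1c12, Adh7 and Akr1c14. Akr1b3 alone was at least 4-fold higher by its bound, which is 2.63% of the 38 and stands beside 5.59% of all genes. For Aldh1l2 and Aldh3b1 the bound lies under 4-fold and does not settle whether they reached it, and without the bound the count was 3. At a 2-fold rule the counts were 18 lower and 3 higher, beside 16.7% and 14.2% of all genes.

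**Figure D1:**
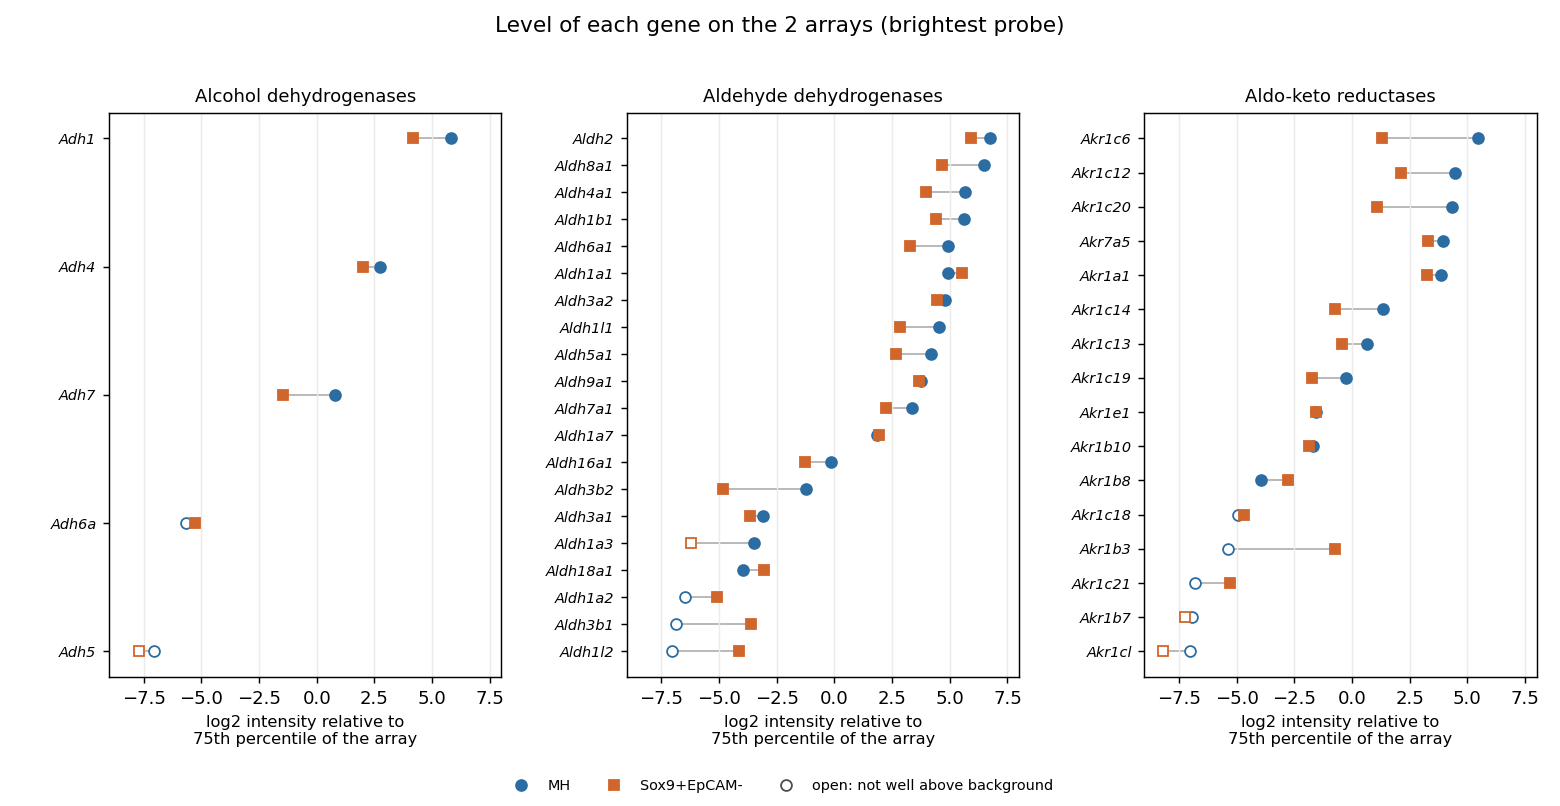
The level of each gene's brightest probe on the 2 arrays, as log2 intensity relative to the 75th percentile of the array, by family, with open symbols for probes not well above background. Circles (MH) lie to the right of squares (Sox9+EpCAM-) for 26 of the 30 genes measured on both arrays, and probe levels of different genes are not to be compared.

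Against the 75th percentile, scaling to Gapdh raised the median of all genes by 0.27 and the deposited table lowered it by 0.18, while quantile normalization and normexp moved genes by unequal amounts. Between 23 and 27 of the 30 genes measured on both arrays were lower under the 6 ways of scaling or correcting the background. The sign depended on the setting for Akr1b10, Akr1e1, Aldh9a1, Aldh3a2 and Aldh1a7, so none of these 5 has a direction here.

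The lowest median of any branch was that of the Akr1c genes, whose members reduce ketones of steroids, prostaglandins and bile acid precursors. Of its 8 genes, 6 were measured on both arrays and all 6 were lower, 4 of them by at least 4-fold. Of all genes, 59.9% were lower and 5.57% by at least 4-fold. Quantile normalization put Akr1c12 at -1.98 and scaling to Gapdh put Akr1c14 at -1.86, so 3 were past 4-fold under each of these. The median over the 7 with a value was -2.12. The genes lie in a row with Akr1e1 on chromosome 13 (probes of the row from 4089325 to 4592211, mm9). The first 30 of the 60 bases of the probes of Akr1c6 and Akr1c20, 5' to 3', are shown because these are the 2 lowest differences of the branch and the Akr1c20 probes read separate stretches.
Akr1c6, chr13:4456428-4456487, plus strand: tgaatactaactggaggtccattttgtgcc
Akr1c20, first probe, chr13:4486408-4486467, minus strand: gaggaccatcctgattttccatttttggat
Akr1c20, second probe, chr13:4506828-4506887, minus strand: tgcccgaaatacattgttgatagtcctata

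Akr1c6, a hydroxysteroid dehydrogenase that reduces androstenedione to testosterone, had intensities of 32900 in MHs and 2760 in Sox9+EpCAM- cells. This is a difference of -4.16, or 17.9-fold lower, the lowest of the 41 genes. The first probe of Akr1c20 read 15100 and 2330, 9.71-fold lower (difference -3.28). The second probe read 2210 and 977 and was 3.39-fold lower (-1.76), so both were lower but the second did not reach 4-fold. The design assigns the first probe to the transcript BC021607 and the second to NM_054080, and whether both read 1 gene was not tested.

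Akr1c12 read 16300 and 4840 and was 5.04-fold lower (-2.33). Akr1c14, a hydroxysteroid dehydrogenase that reduces the 3-keto group of steroids, read 1900 and 654 and was 4.35-fold lower (-2.12), the last gene inside the 4-fold rule. Akr1c19 and Akr1c13 were lower by less, with differences of -1.46 and -1.06. The 6 measured genes thus ranged from 2.09-fold to 17.9-fold lower. Its remaining members were near the limit of detection. Akr1c18, which inactivates progesterone, read 23.9 (not well above background) and 43.4, at least 1.04-fold higher, and 3 of the 6 ways of scaling or correcting the background gave it no fold. Akr1c21 read 6.59 (not well above background) and 27.9, which allows no fold. Akr1e1, the last gene of the row and of another branch, had a difference of -0.02.

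**Figure D2:**
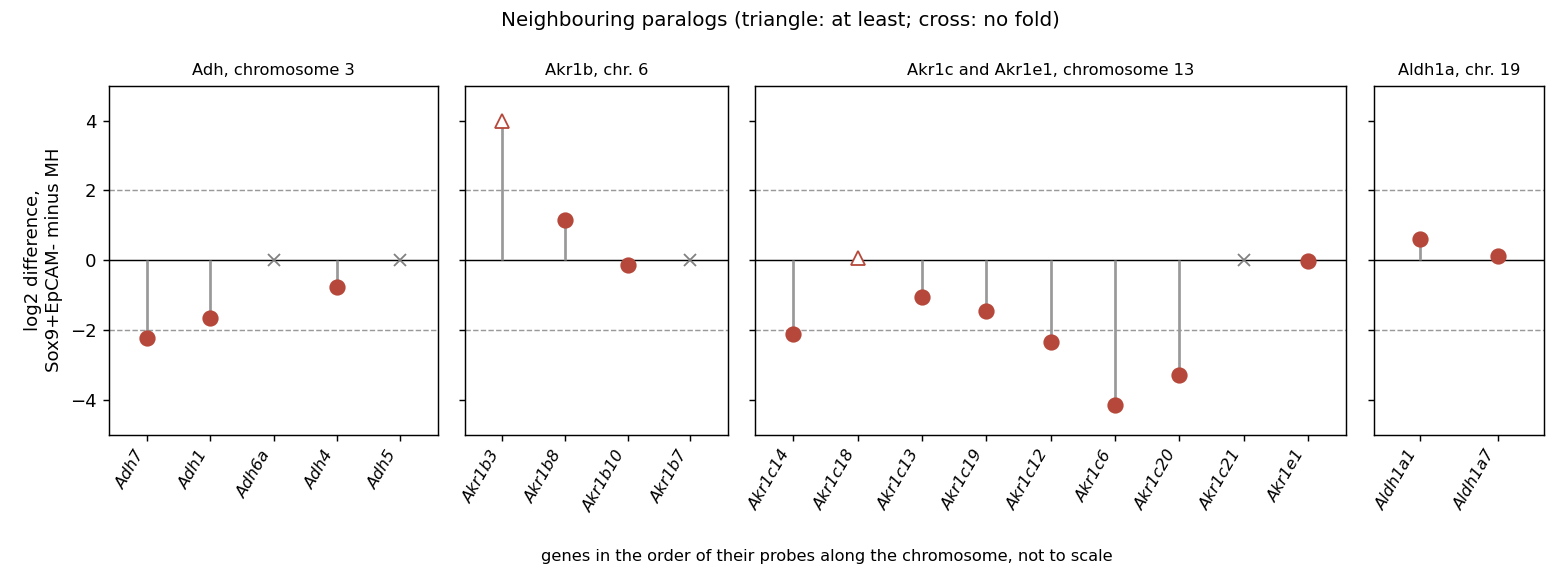
The log2 difference, Sox9+EpCAM- minus MH, of the neighbouring genes on chromosomes 3, 6, 13 and 19, in the order of their probes and not to scale, with dashed lines at 4-fold, triangles for bounds and crosses where no fold can be given. The lowest values on chromosome 13 are those of the adjacent Akr1c6 and Akr1c20, and on chromosome 6 the values run from at least 3.98 for Akr1b3 to -0.15 for Akr1b10.

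The Akr1b branch did not share this direction. Akr1b3 is aldose reductase, which turns glucose into sorbitol at the entry of the polyol pathway. Both of its probes were dark on the MH array and bright on the Sox9+EpCAM- array, and their first 30 bases are shown because this is the only gene of the 41 whose bound reached 4-fold higher and because the 2 probes lie apart.
Akr1b3, brighter probe, chr6:34260573-34260632, minus strand: atggaacaactagtggatgaaggtttggtg
Akr1b3, other probe, chr6:34253930-34253982, minus strand: ttacccccctggaggactttaacacaagta

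The brighter probe read 17.9 (not well above background) and 657, at least 15.8-fold higher (3.98). The other read 18.7 (not well above background) and 482, at least 11.6-fold higher (3.53). With normexp background correction the difference of the brighter probe was 2.44, still past 4-fold, so the size of this bound depends on how the background of a dim probe is handled. Both values are bounds against the same limit on the MH array, so they do not compare the folds of the probes. Akr1b8, a reductase of lipid aldehydes first found as a gene induced by fibroblast growth factor, was printed in 10 spots on each array. These read from 41.4 to 65.2, with a median of 47.8, in MHs, and from 144 to 183, with a median of 160.5, in Sox9+EpCAM- cells. The spots of the 2 arrays did not overlap, and their SD was 0.20 on the log2 scale in MHs and 0.12 in Sox9+EpCAM- cells. Their mean was 2.23-fold higher in Sox9+EpCAM- cells (1.16) but only 0.39 on the log2 scale with normexp, and the spread covers the spots of an array and not mice. Akr1b10 had differences of -0.15 and -0.96 with its 2 probes. Akr1b7, known from the vas deferens and the adrenal, was not well above background on either array.

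**Figure D3:**
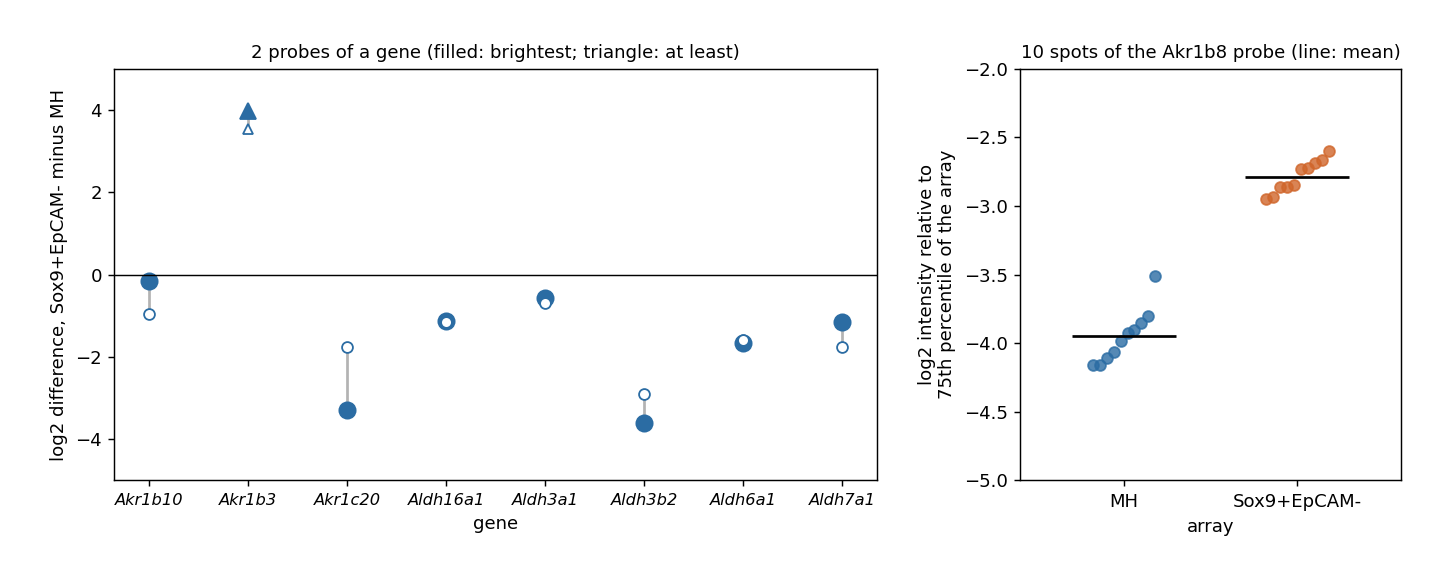
Left, the log2 difference by each of the 2 probes of the 8 genes that have 2, with the brightest probe filled and triangles for bounds. Right, the level of each of the 10 Akr1b8 spots on each array with their mean as a line, where every Sox9+EpCAM- spot (intensity 144 to 183) lies above every MH spot (41.4 to 65.2).

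The general aldehyde reductases were lower by less than 2-fold. Akr1a1, which reduces glucuronate on the way to vitamin C in the mouse, read 10700 and 10500 (-0.61). Akr7a5, a reductase of succinic semialdehyde and of aflatoxin dialdehyde, read 11500 and 11000 (-0.65). Both lie nearer to 0 than the hepatocyte markers' median. Akr1cl, on chromosome 1, was not well above background on either array.

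All 3 alcohol dehydrogenases that were measured on both arrays were lower, where 59.9% of all genes were, and their median was -1.66. Adh1, the main ethanol dehydrogenase of liver, read 42200 and 20000 and was 3.16-fold lower (-1.66). Adh4, which also oxidises ethanol and retinol, read 5010 and 4440 and was 1.69-fold lower (-0.76). Adh7, an efficient retinol dehydrogenase known best from the stomach and other epithelia, read 1270 and 404 and was 4.71-fold lower (-2.24, or -1.97 with scaling to Gapdh). The 5 genes stand in a row on chromosome 3 (probes from 137894495 to 138118442, mm9), and within it the differences ran from -2.24 at the first gene, Adh7, to -0.76 at the fourth, Adh4. Adh6a read 14.7 (not well above background) and 28.3, which allows no fold. Adh5, the glutathione-dependent formaldehyde dehydrogenase, read 5.63 and 5.39 and was not well above background on either array, so its only probe gives no level.

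**Figure D4:**
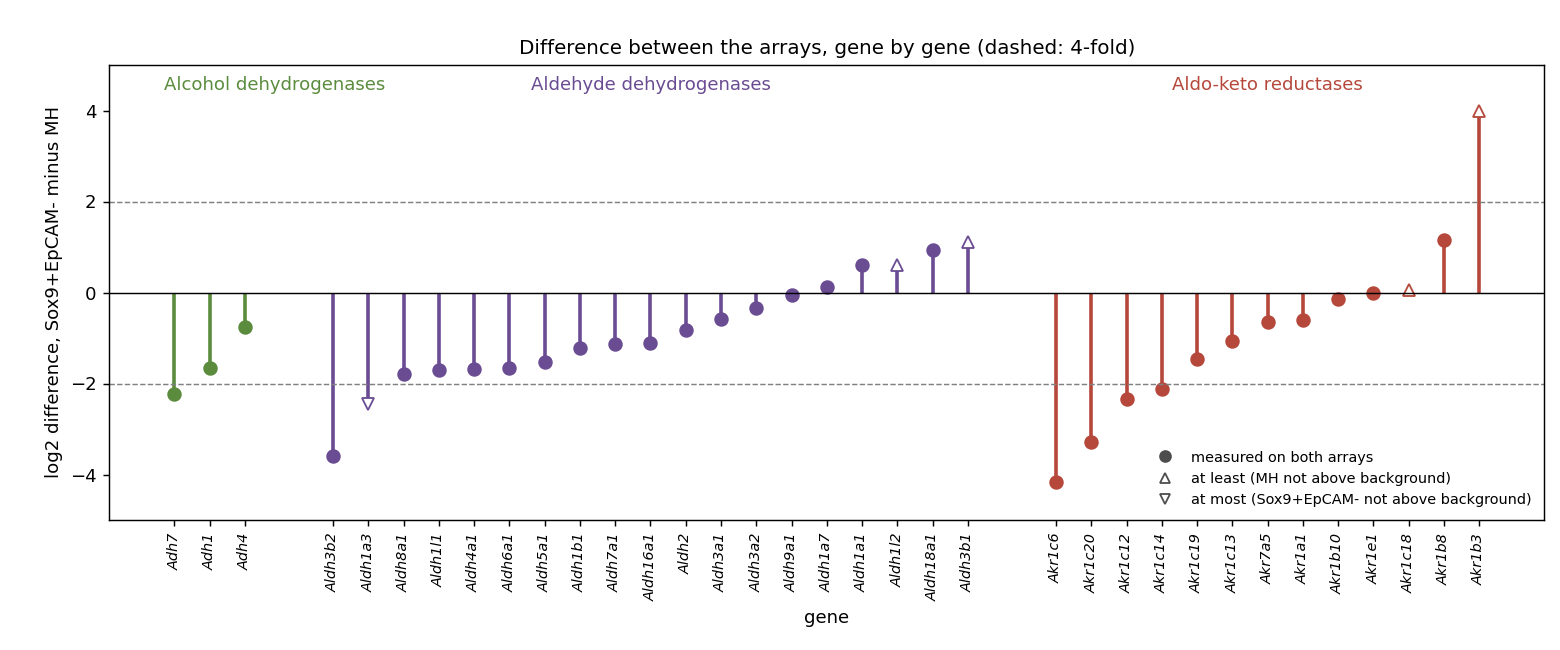
The log2 difference, Sox9+EpCAM- minus MH, of the 35 genes that have a value, by family and sorted within it, with dashed lines at 4-fold and open triangles for bounds. Most stems point down, the lowest at -4.16 (Akr1c6), and Akr1b3 at the right is the only symbol above the upper line, where the triangles of Aldh1l2 and Aldh3b1 are lower limits.

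The mitochondrial enzymes of acetaldehyde were lower by less than 4-fold. Aldh2, which clears the acetaldehyde made from ethanol, read 79900 and 67100 and was 1.78-fold lower (-0.83). Aldh1b1, its close mitochondrial relative, read 36800 and 23800 and was 2.32-fold lower (-1.21). Both stayed bright in Sox9+EpCAM- cells. In the same list of alcohol, polyol and acetate handling, 11 of 12 further genes were measured on both arrays, and all 11 were lower, with a median of -1.90 and 4 of them by at least 4-fold. Of all genes, 59.9% were lower and 5.57% at least 4-fold lower. The 4 were Cyp2e1, the ethanol-oxidising cytochrome P450 (56100 and 1900, difference -5.47), Sord, which turns sorbitol into fructose (874 and 101, -3.70), Acss2, which activates acetate (15100 and 5280, -2.10), and Rgn, a lactonase of vitamin C synthesis (35100 and 168, -8.29). Scaling to Gapdh and quantile normalization put Acss2 under 4-fold, and quantile normalization put Khk above 0. Cat, the catalase of peroxisomes, had a difference of -0.94. In the polyol pathway the level of Akr1b3 was thus higher and that of Sord lower in Sox9+EpCAM- cells, while Khk, which phosphorylates fructose, has no direction here.

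The 5 aldehyde dehydrogenases of amino acid breakdown were all lower, over a narrow range from -1.79 to -1.14 with a median of -1.66. Of all genes, 59.9% were lower and 16.7% at least 2-fold lower. With quantile normalization the 5 ranged from -1.28 to -0.83. Aldh8a1, an enzyme of the kynurenine pathway of tryptophan, read 65600 and 28500 and was 3.45-fold lower (-1.79), which puts it just outside the 4-fold rule. Aldh4a1, which makes glutamate from proline's breakdown product, read 37800 and 17500 and was 3.24-fold lower (-1.69). Aldh6a1, the methylmalonate semialdehyde dehydrogenase of valine breakdown, read 22600 and 10700 with its brightest probe and 1160 and 577 with the other, and the differences were -1.66 and -1.59. These 2 probes gave nearly the same difference at very different brightness. Aldh5a1, which oxidises succinic semialdehyde from GABA, was 2.89-fold lower (-1.53). Aldh7a1, which acts in lysine breakdown, was 2.2-fold lower (-1.14) by its brightest probe and 3.38-fold lower (-1.76) by the other. Against these, Aldh18a1, which works in the direction of proline synthesis, read 47.1 and 134 and was 1.9-fold higher (0.93), which became 0.22 with normexp.

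The Aldh1a branch, which holds the enzymes that make retinoic acid from retinal, was mixed. Aldh1a1 read 22300 and 50500 and was 1.51-fold higher (0.60), and it was higher under each scaling, by 0.42 to 1.06 on the log2 scale. Aldh1a7, its close relative and neighbour on chromosome 19, is not known for making retinoic acid and had a difference of 0.11. Aldh1a3 read 66.7 on the MH array and 14.8 (not well above background) on the other, at least 5.43-fold lower (-2.44), and it is the only gene of the 41 detected on the MH array alone. With normexp background correction this became -1.36, so its place among the 4-fold genes depends on how the background of a dim probe is handled. Aldh1a2 read 8.24 (not well above background) and 32.7, which allows no fold.

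Around them, 28 of 29 further genes of retinoid metabolism were above background on 1 array or both, with 19 lower and 6 higher among 25 measured on both and a median of -0.67. The share lower was 76% where it was 59.9% of all genes, and 16 to 21 of the 25 were lower over the 6 ways of scaling or correcting the background. By at least 4-fold, 3 of the 28 were lower, beside 5.57% of all genes, and with normexp only Cyp26a1 was. The 3 were Cyp26a1, which breaks down retinoic acid (2660 and 467, -3.09), Rbp7, a cellular retinol-binding protein (198 and 46.3, -2.68), and Lrat, which stores retinol as esters (94.6 and 3.74 (not well above background), at least 7.7-fold lower, -2.95). Lrat is also one of the stellate cell markers, whose median of 1.84 has the other sign. Dhrs9, a retinol dehydrogenase, was at least 3-fold higher (8.42, not well above background, and 125, difference 1.59), a bound that does not settle whether any gene of the list was 4-fold higher, and the receptor gene Rarb was 1.99-fold higher (0.99).

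Adh7 and Aldh1a1, which act one after the other on retinol, are the only ones of the 33 genes with a promoter in the RefSeq table that have a match to an AP-1 site (TGANTCA) in the 250 bases before a start of transcription. The AP-1 letters are in 5.56% of the 36 promoters of these genes, near the 6.75% of all promoters. Adh7 and Aldh1a1 also hold a C/EBP site (TTGCNNAA), and their promoters are shown for this reason, with the matches in capitals (RefSeq, GRCm38.p6, 5' to 3').
Adh7, chr3:138217523-138217772, plus strand: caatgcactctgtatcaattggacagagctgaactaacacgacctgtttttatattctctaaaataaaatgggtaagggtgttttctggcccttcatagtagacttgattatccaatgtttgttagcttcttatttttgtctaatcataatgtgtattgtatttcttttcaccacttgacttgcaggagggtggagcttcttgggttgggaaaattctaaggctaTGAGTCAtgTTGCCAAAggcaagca
Aldh1a1, first of 2 starts, chr19:20492333-20492582, plus strand: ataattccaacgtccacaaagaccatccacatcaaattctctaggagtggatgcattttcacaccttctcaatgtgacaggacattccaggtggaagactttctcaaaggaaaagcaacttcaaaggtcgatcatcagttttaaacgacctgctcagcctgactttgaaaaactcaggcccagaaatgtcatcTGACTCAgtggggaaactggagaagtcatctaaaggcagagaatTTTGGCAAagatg

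In Adh7 the AP-1 letters lie 25 to 19 bases before the start and the C/EBP letters 16 to 9 bases before it, and in Aldh1a1 they lie at 57 to 51 and at 13 to 6 bases. The second start of Aldh1a1 has no match to either motif. The difference of Adh7 was -2.24 and that of Aldh1a1 was 0.60. Which of its 2 starts the level of Aldh1a1 comes from, and whether the letters bear on either gene, was not tested. Both strands of 36 promoters of 33 of the genes were searched for 6 motifs. The AP-1 letters were in 2 of the 36 (5.56%) and in 6.75% of all 32851 promoters, and the C/EBP letters in 4 (11.1%) and 9.56%. The core of the antioxidant response element read by Nrf2 (TGACNNNGC) was in 4 (11.1%) and 10.2%, and the STAT5 letters (TTCNNNGAA) in 4 (11.1%) and 7.02%. The HNF4 letters (CAAAGTCCA) were in 0 of 36 and in 0.384% of all promoters, and the HNF1 motif in 0 and 0.00913%. A match is a run of letters, not a bound site. Of the 41 genes, 33 had a promoter in the table, and Akr1b3, Akr1c20, Aldh1a3 and Aldh3b2 were among those without one.

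In the folate-linked pair, the cytosolic and the mitochondrial enzyme went apart. Both oxidise formyltetrahydrofolate to carbon dioxide and tetrahydrofolate. Aldh1l1, the cytosolic enzyme, read 17200 and 7890 and was 3.27-fold lower (-1.71). Aldh1l2, the mitochondrial one, read 5.6 (not well above background) and 63.1, at least 1.52-fold higher (0.60). This bound was 0.18 with normexp and 0.38 with quantile normalization. Among 16 further genes of folate and formaldehyde metabolism, 13 were lower and 2 higher of the 15 measured on both arrays (86.7% lower, beside 59.9% of all genes), the median of these 15 was -1.02 and none of these 15 differed by 4-fold, although with the deposited table Mthfd1l and Gnmt were 4-fold lower. Mthfd1l, a mitochondrial enzyme of this pathway, read 5350 and 2070 and was 3.87-fold lower (-1.95). Mthfd2, also mitochondrial, read 5.73 (not well above background) and 161, at least 3.87-fold higher (1.95), a bound that does not settle whether it reached 4-fold and that passed it with scaling to Gapdh.

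The Aldh3 branch oxidises aldehydes from lipids, and its 4 genes spread from -3.60 to at least 1.11. Aldh3b2 read 313 and 38.7 with its brightest probe and was 12.1-fold lower (-3.60, or -2.41 with normexp). Its second probe read 172 and 34.8 and was 7.4-fold lower (-2.89), but the 2 probes share 42 bases and are not independent readings. Aldh3b1, a neighbour on chromosome 19, read 6.26 (not well above background) and 89.7, at least 2.15-fold higher (1.11, or 0.33 with normexp). These 2 genes of 1 branch thus lay on opposite sides of 0. Aldh3a2, the fatty aldehyde dehydrogenase, read 20600 and 24400 (-0.34), and Aldh3a1, known from the cornea, read 86 and 86.4 (-0.58).

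Of the remaining aldehyde dehydrogenases, Aldh9a1, an enzyme of carnitine synthesis, read 9870 and 14200 (-0.06). Aldh16a1 was 2.17-fold lower (-1.12), and its second probe gave -1.16. The family as a whole had 13 genes lower and 3 higher of 16 measured on both arrays (81.2% lower, beside 59.9% of all genes). Its median was -1.12 over the 19 with a value. The aldo-keto reductases had 10 lower and 1 higher of 11 (90.9% lower, beside the same 59.9%), with a median of -0.65 over 13. Aldh9a1, Aldh3a2 and Aldh1a7 in the first count, and Akr1b10 and Akr1e1 in the second, have no direction here.

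Other reductases of carbonyls and quinones were lower as well. All 14 further genes of that list were measured on both arrays and lower, with a median of -1.03 and a range from -2.75 to -0.46, where 59.9% of all genes were lower. Only Nqo2, a quinone reductase, reached 4-fold (11600 and 2580, 6.74-fold lower), a share of 7.14% near the 5.57% of all genes. Nqo1, a quinone reductase that is a standard target of Nrf2, read 1110 and 1060 (-0.65), and Cbr1, a carbonyl reductase, read 25900 and 14000 (-1.47).

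**Figure D5:**
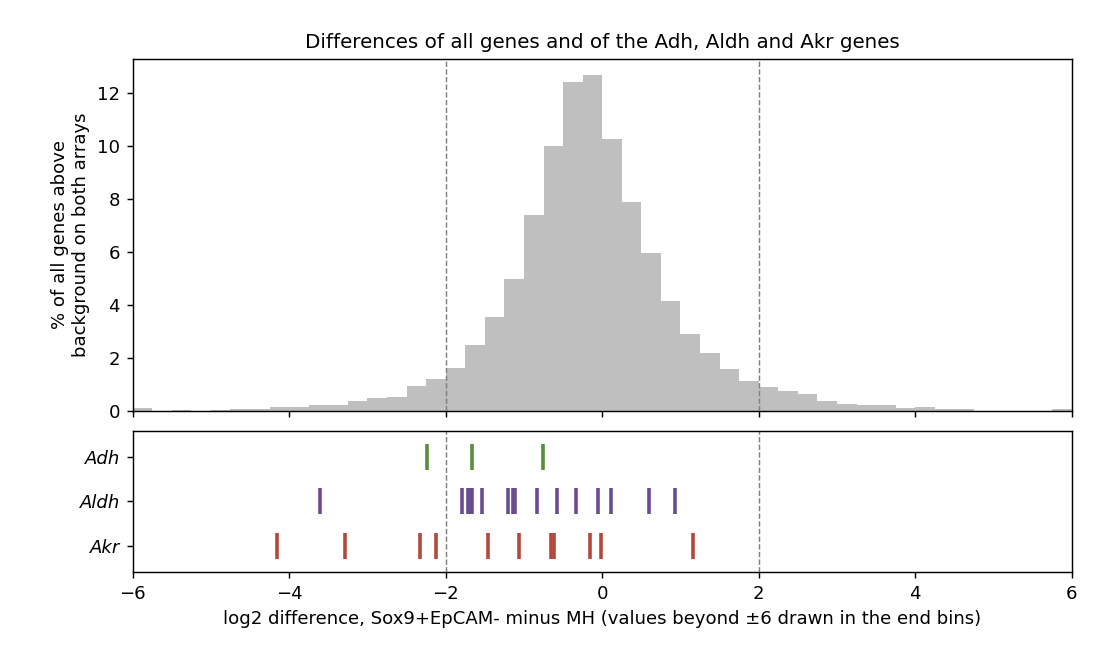
Top, the share of all genes measured on both arrays in each bin of the log2 difference, Sox9+EpCAM- minus MH. Bottom, 1 mark for each Adh, Aldh and Akr gene measured on both, where most marks lie left of 0 and 6 lie at or beyond 4-fold lower (left dashed line).

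The probes of 8 genes could be set against each other. Within each of the 8, both probes gave a difference of the same sign, and the widest gap between probes measured on both arrays was 1.52 on the log2 scale, for Akr1c20. The gap was 0.81 for Akr1b10, 0.71 for Aldh3b2, 0.62 for Aldh7a1, 0.04 for Aldh16a1, 0.07 for Aldh6a1 and 0.11 for Aldh3a1, whose 2 probes overlap on the genome and are not independent. For comparison, the median SD between spots of 1 probe was 0.08 on each array, over 262 and 297 probes printed at least 8 times. No probe of the 41 genes shared 20 bases or more with a probe of another gene, and the longest shared stretch was 19 bases, between Aldh3a2 and Krtap9-1. Binding of a probe to the transcript of a paralog was not tested.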

How the data were processed

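Total RNA of 2 samples was hybridised to 1 array each by a service provider. The authors deposited the spot intensities of Feature Extraction 10.7.3.1, background-subtracted and detrended but not normalized between arrays, and a table of ratio values, in which each intensity is divided by the median of its array (96.5 for MH, 164 for Sox9+EpCAM-). Probe coordinates are those of the design (mm9). Of 43020 spots, 27523 (MH) and 32158 (Sox9+EpCAM-) were well above background and 0 were saturated. Intensities were scaled to the 75th percentile and taken to log2, without outlier and control spots, and averaged over the spots of each probe. The accessions of 46 of 49 probes give the same symbol in RefSeq (GRCm38.p6). Named in full were genes at least 4-fold different, the 5 brightest of each family, and genes whose probes differ by 4-fold. Any other gene was named with its value already known.

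The genes, gene lists and motifs were chosen with earlier results of these data known. The alternatives were normexp (limma 3.58.1, R 4.3.3, offset 50), scaling to Gapdh or to the median of jointly detected probes, quantile normalization, the deposited table, the median over a gene's probes, outlier spots kept, no bound, only genes measured on each of the arrays, and a 2-fold rule. Each further probe of a gene on its own was an alternative chosen after seeing the data. A value that changed by more than 1.5-fold was called moved. The scripts, in Python 3.11.15 with pandas 2.3.3, numpy 2.4.6 and matplotlib 3.10.9, were tested on simulated data.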

Additional observations from a re-analysis of the deposited data

How the results depend on the processing

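No paired analysis was possible because MHs and Sox9+EpCAM- cells have 1 array each, and for the same reason leaving out an array and a slide block were not run. The number of Adh, Aldh and Akr genes at least 4-fold higher was 1 (Akr1b3), 3 without the bound (Akr1b3, Aldh1l2 and Aldh3b1) and 0 among genes above background on both arrays. The 2-fold rule gave 18 lower and 3 higher. The number at least 4-fold lower was 7, 6 with normexp (without Aldh1a3), 6 with quantile normalization (without Akr1c12) and 5 with scaling to Gapdh (without Adh7 and Akr1c14). The median of the Adh genes, -1.66, ran from -1.84 (deposited table) to -1.20 (quantile normalization). That of the Aldh genes, -1.12, ran from -1.30 (deposited table) to -0.76 (quantile normalization). That of the Akr genes, -0.65, ran from -1.06 (only genes above background on both arrays) to -0.38 (scaling to Gapdh). Over all genes, the counts higher and lower were 1309 and 1304, and scaling to Gapdh gave 1650 and 1006. They were 612 and 660 with normexp, 1949 and 1416 without the bound, and 758 and 914 among genes above background on both arrays. Among the genes named by the rule and the alternatives other than single probes, the values that moved by more than 1.5-fold were those of Akr1b3 (2.44), Aldh1a3 (-1.36) and Aldh3b2 (-2.41) with normexp, Akr1b3 without the bound (4.61) and Akr1c20 with the median of its probes (-2.52), and the other 146 of 151 values stayed within that size and none reversed. Outside the rule, Akr1b8 (0.39), Aldh18a1 (0.22) and Aldh3b1 (0.33) also moved with normexp. With the other probe of the gene, an alternative chosen after seeing the data, Akr1b10 (-0.96), Akr1c20 (-1.76), Aldh3b2 (-2.89) and Aldh7a1 (-1.76) moved. The causes were not tested. The limit of detection, 27.8 in MHs and 18.4 in Sox9+EpCAM- cells, bounds what could be measured for the 8 genes above background on 1 array only.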
